A study of Mus musculus with 24 samples.

Results

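The cerebellum was set against 3 forebrain regions (cortex, hippocampus and olfactory bulb) in wild-type C57BL/6 mice, by poly(A)-selected RNA sequencing. All wild-type libraries were taken and no Cdr1as-knockout library was used, which gave 12 of the 24 libraries in the series: 3 from cerebellum and 3 from each forebrain region. The labels give neither the age or sex of the mice nor whether the 3 replicates of a region are separate animals, so p-values measure the spread between these libraries, which may be technical. Each library held between 21068566 and 36208610 counts assigned to genes. The libraries are of whole dissected tissue, in which fewer cells of a type and less RNA per cell cannot be told apart.

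The cerebellum is built from a few neuron types in a repeated circuit. Granule neurons, small and very numerous, receive mossy fibres and send parallel fibres to the dendrites of Purkinje neurons, the GABAergic output of the cerebellar cortex, while Bergmann glia wrap the Purkinje synapses. Its neurons arise from the rostral hindbrain next to the midbrain boundary, where Engrailed and Pax factors act, whereas cortex, hippocampus and olfactory bulb come from the telencephalon. Granule neurons come from progenitors that express Atoh1 and the GABAergic neurons from progenitors that express Ptf1a.

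The promoters of 3 genes that mark those neurons are shown because the genes are among those that separated the cerebellum most from the forebrain: Gabra6, a GABA-A receptor subunit of granule neurons, Cbln3, a secreted cerebellin of granule neurons, and Pcp2, a G-protein regulator of Purkinje neurons. Each is the 250 bases upstream of a RefSeq transcription start in assembly GRCm38.p6, given 5′ to 3′ along the gene. Gabra6 is on the minus strand at chr11:42321073-42321322, Cbln3 on the minus strand at chr14:55884257-55884506, and the most upstream of 4 listed Pcp2 starts on the minus strand at chr8:3625548-3625797. Capitals mark matches to short motifs searched on both strands. The nuclear factor I half-site was TTGGCA, which reads TGCCAA on the other strand. The nuclear receptor half-site was AGGTCA, which reads TGACCT on the other strand. The E-box was CAGATG, which reads CATCTG on the other strand.
Gabra6: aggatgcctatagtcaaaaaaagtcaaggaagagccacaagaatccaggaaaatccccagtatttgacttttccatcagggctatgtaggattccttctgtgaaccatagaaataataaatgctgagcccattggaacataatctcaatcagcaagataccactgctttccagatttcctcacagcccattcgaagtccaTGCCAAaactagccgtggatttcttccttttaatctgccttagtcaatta
Cbln3: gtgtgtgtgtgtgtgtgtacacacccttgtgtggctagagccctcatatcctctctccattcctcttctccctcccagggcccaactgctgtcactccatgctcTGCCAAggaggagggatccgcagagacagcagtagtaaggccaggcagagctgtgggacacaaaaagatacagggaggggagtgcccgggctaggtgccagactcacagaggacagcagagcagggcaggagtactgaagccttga
Pcp2: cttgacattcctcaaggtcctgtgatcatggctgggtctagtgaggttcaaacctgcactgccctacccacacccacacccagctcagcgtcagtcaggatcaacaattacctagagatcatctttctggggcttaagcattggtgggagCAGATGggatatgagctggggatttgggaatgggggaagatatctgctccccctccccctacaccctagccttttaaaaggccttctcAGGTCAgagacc
The nuclear factor I half-site began 50 bases upstream of the Gabra6 start and 146 bases upstream of the Cbln3 start, in both as TGCCAA. The Pcp2 window held AGGTCA 12 bases and CAGATG 100 bases upstream of the start. These letters are common: of all 32851 promoter windows in the RefSeq table, 12.3% held TTGGCA, 14% held AGGTCA and 14.4% held CAGATG on either strand. Among the 15553 windows of genes tested below, the shares were 10.2%, 11% and 10.6%. A match describes the sequence and was not tested as a binding site.

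Before the results, 3 features of the libraries need stating. Cerebellum replicate 1 carried more of several RNAs known from outside the cerebellum. Of 16729 tested genes, 202 were over 2-fold higher in it than in the mean of the other cerebellum libraries, and 32 over 2-fold lower (0.5 CPM added). In replicates 2 and 3, 61 and 25 were higher and 252 and 186 lower. Nrgn, a calmodulin-binding protein of forebrain neurons, had 49, 3.42 and 4.45 CPM in cerebellum replicates 1, 2 and 3, and Tcf7l2, a thalamic and midbrain transcription factor, had 45.4, 5.54 and 5.96 CPM there, against 4.54 to 15.3 CPM in the forebrain (CPM are counts scaled to a common library size after TMM normalization). What tissue the extra RNA came from was not tested. In the 4 libraries numbered 2, 51 of 13224 genes that averaged at least 1 CPM in every region were at least 2-fold under both other replicates in every region, against 2 genes for number 1 and 1 for number 3. Among the 51 was the potassium channel Kcna2, chosen after its values were seen, with 7.59 CPM in cerebellum replicate 2 and 133 and 136 CPM in the other two. Choroid plexus RNA varied between libraries of 1 region: Ttr, the thyroxine carrier made there, had 1867, 2175 and 3.52 CPM in the 3 cerebellum libraries, against 2281, 6.83 and 3020 CPM in hippocampus, 355, 124 and 4.33 CPM in cortex and 0.805 to 1.04 CPM in bulb.

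The first comparison counted the genes that separate the cerebellum from the forebrain. Of 16729 genes tested with edgeR's quasi-likelihood test, 4596 were higher in the cerebellum than in the mean of the 3 forebrain regions at a Benjamini-Hochberg adjusted p under 0.05 (27.5% of tested genes), and 4503 were lower (26.9%), 54.4% in all. In 2640 genes the 3 cerebellum libraries all lay above the 9 forebrain libraries (15.8%), and in 2484 they all lay below (14.8%). Against single regions, 4428 genes were higher (26.5%) and 4562 lower (27.3%) than in cortex. Against hippocampus 4063 were higher (24.3%) and 4133 lower (24.7%), and against bulb 3796 were higher (22.7%) and 3968 lower (23.7%). Because a mean over regions can be moved by 1 of them, genes are called cerebellum-defining below only when they passed against the mean and against cortex, hippocampus and bulb separately, in 1 direction and with a log2 fold change of at least 1 in size against each. That left 784 genes higher (4.69%) and 1208 lower (7.22%) in the cerebellum, 11.9% of tested genes together. The 784 higher genes took 8.56 to 9.49% of all gene counts in the cerebellum libraries, against 1.91 to 2.12% in the forebrain libraries, and the 1208 lower genes took 1.37 to 1.66% in the cerebellum, against 7.24 to 8.19% in the forebrain. Without cerebellum replicate 1 there were 833 higher and 1261 lower defining genes, and without the 4 libraries numbered 2 there were 715 and 1046. Of the 1208 lower genes, 97 were over 2-fold higher in cerebellum replicate 1 than in the mean of the other cerebellum libraries, and 0 over 2-fold lower (0.5 CPM added). In replicates 2 and 3, 3 and 0 were higher and 38 and 39 lower.

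The cerebellum stood farther from each forebrain region than they stood from each other. Genes called with at least a 2-fold difference made up 25.1% of tested genes between cerebellum and cortex, 23% between cerebellum and hippocampus and 23.5% between cerebellum and bulb. Between cortex and hippocampus the share was 5.76%, but the bulb differed from cortex in 17.6% and from hippocampus in 18.1%. The root mean square distance in log2 CPM was 1.26 to 1.56 between cerebellum and forebrain libraries, 0.69 to 1.26 between libraries of different forebrain regions and 0.521 to 0.562 among the 3 cerebellum libraries.

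**Figure D1:**
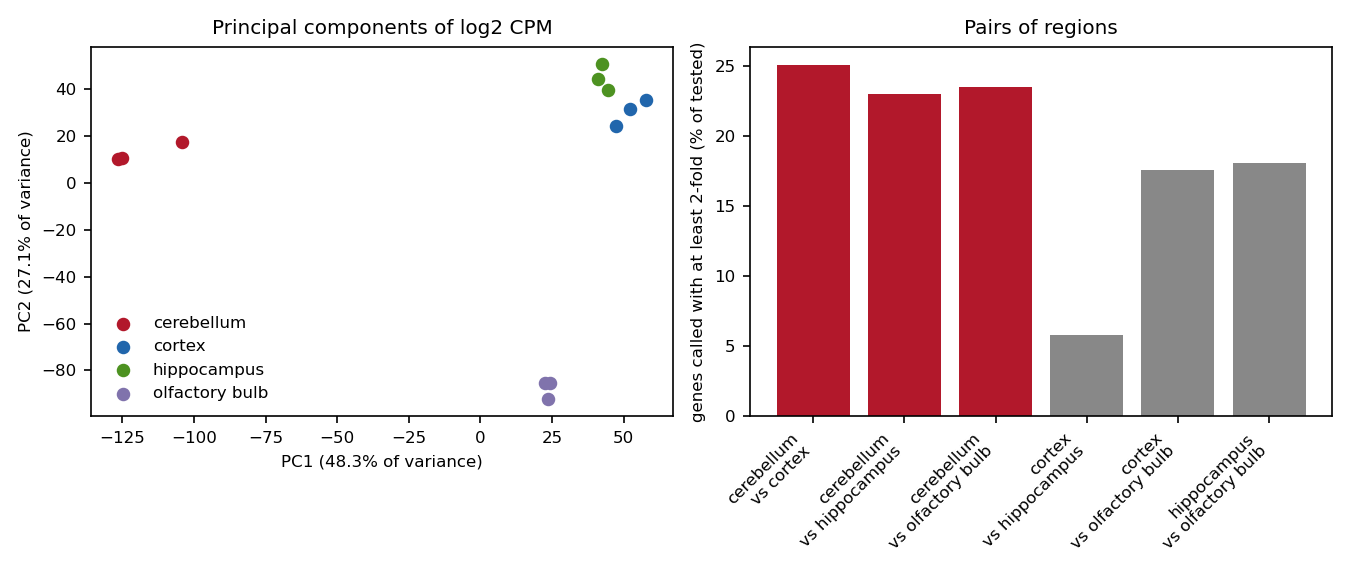
Left, the first 2 principal components of log2 CPM over all tested genes, 1 point per library, coloured by region, with the variance of each component on its axis (48.3% and 27.1%). Right, bars give the percent of tested genes called with at least a 2-fold difference in each pair of regions, from 5.76% for cortex and hippocampus to 25.1% for cerebellum and cortex. The 3 cerebellum libraries lie alone at the left of the first component.

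The higher defining genes were ranked by their smallest difference from any forebrain region, and the first 15 with a gene name are described here. They were all at least 7.89 on the log2 scale above each forebrain region in the fit. Cbln3 had 1539, 1839 and 1766 CPM in cerebellum, against 0.564, 0.575 and 0.567 CPM in cortex, 0.416, 0.863 and 0.953 CPM in hippocampus and 0.637, 0.402 and 0.433 CPM in bulb. Its log2 fold change against the forebrain mean was 11.51 (SE 0.15, adjusted p = 2.27e-13), and no forebrain library reached 1 CPM. Fat2, a large protocadherin of granule neurons and their parallel fibres, had 1062, 976 and 1130 CPM in cerebellum, against 0.225 to 0.806 CPM in the 9 forebrain libraries (log2 11.10, SE 0.14, adjusted p = 2.27e-13). None of the 15 overlapped between cerebellum and forebrain libraries, which largely follows from their being ranked on these same libraries.

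Gabra6 had 746, 775 and 859 CPM in cerebellum, 73427 counts in all, against 13 counts summed over the 9 forebrain libraries. Its log2 fold change was 13.77 (SE 0.25, adjusted p = 4.37e-12) and 15.13 without cortex replicate 3, which held all 6 of its cortex counts. Against the 3 counts of Gabra6 in hippocampus the ratio was 21900, with a 95% counting interval of 7480 to 106000. Pcp2 had 237, 281 and 268 CPM in cerebellum, against 0.0359 to 0.0597 CPM in cortex, no count in hippocampus and 0.212 to 0.433 CPM in bulb (log2 12.56, SE 0.14, adjusted p = 2.22e-12). Skor2, a transcriptional corepressor of Purkinje neurons, had 11.3, 14.4 and 11.5 CPM in cerebellum and no count in any forebrain library. Against a floor of 3 counts over the group it was at least 994-fold higher in the cerebellum. Sycp1, named for the synaptonemal complex of meiotic cells, had 20.8, 20.8 and 24.1 CPM in cerebellum and 1 count in the forebrain, in bulb replicate 3, a ratio of 5270 with a 95% counting interval of 945 to 208000.

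Transcription factors were also among the 15. En2, an Engrailed factor of the midbrain and cerebellum, had 143, 160.2 and 156 CPM in cerebellum, against 0.257 to 0.597 CPM in cortex, 0.387 to 0.638 CPM in hippocampus and 0.101 to 0.303 CPM in bulb (log2 8.74, SE 0.16, adjusted p = 2.22e-12). Barhl1, a homeodomain factor of granule neuron progenitors, had 17.2, 17.1 and 14.7 CPM in cerebellum and at most 0.113 CPM in any forebrain library. Pax3 had 6.3, 7.4 and 8.03 CPM in cerebellum and at most 0.0597 CPM elsewhere, from 5 forebrain counts. The log2 fold change of 8.21 (SE 0.40, adjusted p = 7.08e-09) was 9.09 without cortex replicate 3, 9.07 without hippocampus replicate 1 and 8.88 without bulb replicate 1.

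The rest of the 15 have more varied roles. Slc6a5, the neuronal glycine transporter that marks glycinergic cells such as Golgi neurons, had 46.2, 53.7 and 51.1 CPM in cerebellum, against 0.0359 to 0.136 CPM in 8 forebrain libraries and no count in bulb replicate 1 (log2 9.48, SE 0.18, adjusted p = 3.42e-12). Dao, the D-amino acid oxidase that breaks down D-serine, had 63.8, 77.3 and 65.5 CPM in cerebellum and at most 0.335 CPM elsewhere (log2 9.10, SE 0.22), and 10.28 without cortex replicate 3. Cnpy1, a regulator of FGF signalling at the midbrain-hindbrain boundary in zebrafish, had 416, 564 and 622 CPM in cerebellum, against 0 to 0.108 CPM in cortex, 0.0907 to 0.446 CPM in hippocampus and 0.509 to 0.805 CPM in bulb. Crtam, an immunoglobulin-domain adhesion molecule best known from T cells, stood at 85.8, 88.3 and 88.2 CPM in cerebellum and at most 0.168 CPM in the forebrain, and Nrk, a Nik-related kinase, at 52.3, 60.7 and 67.7 CPM and at most 0.217 CPM. Iltifb had 20, 22.4 and 24.9 CPM in cerebellum and 4 counts in the forebrain, of which 3 were in cortex replicate 3 and 1 in hippocampus replicate 2. The log2 fold change of 10.59 was 11.63 without the first of these libraries and 11.20 without the second. Reads that aligned equally well to Iltifb and the near-identical interleukin gene Il22 were left out as not unique, so its counts may be too low. Whether the remaining reads tell the copies apart was not tested.

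**Figure D2:**
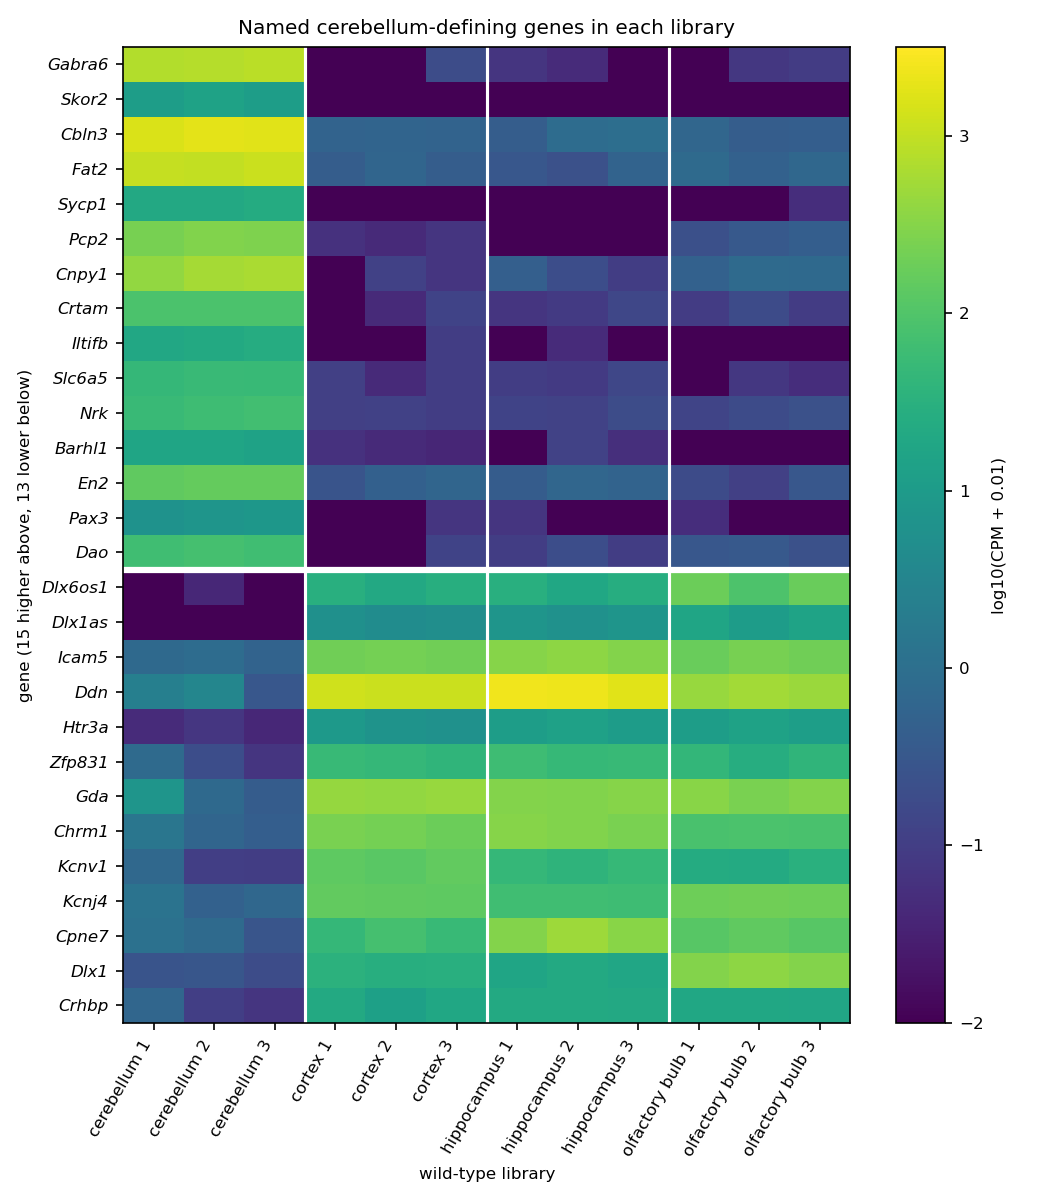
Heat map of 28 cerebellum-defining genes in rows (15 higher above the white line, 13 lower below) and the 12 wild-type libraries in columns, cerebellum leftmost; colour is log10(CPM + 0.01). The genes were chosen for their difference in these same libraries, and every row changes colour at the border between the 3 cerebellum columns and the 9 forebrain columns. Gda, Zfp831, Kcnv1 and Crhbp are brighter in cerebellum replicate 1 than in the other cerebellum libraries.

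The 15 lower genes were ranked in the same way, and 13 of them are described here. The 15 were at least 6.15 below each forebrain region on the log2 scale of the fit. None overlapped, which again largely follows from the ranking on the same libraries. Dlx1, a homeobox gene of forebrain GABAergic neurons, had 0.256, 0.285 and 0.18 CPM in cerebellum, against 28.2 to 35 CPM in cortex, 16.8 to 21.5 CPM in hippocampus and 306 to 368 CPM in bulb (log2 -7.88, SE 0.19, adjusted p = 2.04e-11).

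The noncoding RNAs Dlx1as and Dlx6os1 overlap Dlx genes, and since the strand setting of the counting is not given in the sources used here, their reads and those of their neighbours cannot be told apart. Dlx1as had no count in cerebellum and 4.74 to 17.2 CPM in the forebrain, at least 269-fold lower in cerebellum against the same floor. Dlx6os1 had 1 count in cerebellum, in replicate 2, and 19.3 to 184 CPM in the forebrain, a forebrain to cerebellum ratio of 5850 (95% counting interval 1050 to 231000).

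Other lower genes act at dendrites and in receptor signalling. Icam5 (telencephalin), a dendritic adhesion molecule of the telencephalon, had 0.732, 0.886 and 0.542 CPM in cerebellum, against 205, 229.6 and 205 CPM in cortex, 319.6, 373 and 306 CPM in hippocampus and 177, 233 and 205 CPM in bulb (log2 -8.40, SE 0.19, adjusted p = 1.02e-11). Ddn (dendrin), a postsynaptic protein, had 2.38, 3.26 and 0.301 CPM in cerebellum and between 459 and 2354 CPM in the forebrain (log2 -9.10, SE 0.57, adjusted p = 2.05e-07), and -9.70 without cerebellum replicate 2. Chrm1, the muscarinic M1 acetylcholine receptor, had 1.46, 0.601 and 0.421 CPM in cerebellum, against 187 to 246 CPM in cortex, 242 to 313 CPM in hippocampus and 83.2 to 88.2 CPM in bulb. Cerebellum replicate 1 was the highest of its 3 cerebellum libraries, and without it the log2 fold change was -8.40 in place of -7.75.

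The set held 2 potassium channel genes. Kcnj4, an inward rectifier, had 1.21, 0.506 and 0.692 CPM in cerebellum and 62.2 to 201 CPM in the forebrain (log2 -7.27, SE 0.20, adjusted p = 4.78e-11). Kcnv1, a modifier subunit that is silent on its own, had 0.696, 0.0949 and 0.0903 CPM in cerebellum and 23.3 to 154 CPM in the forebrain (log2 -7.59, and -9.12 without cerebellum replicate 1). The same library set the size, not the call, of 3 more: Gda, a guanine deaminase, had 7.25, 0.759 and 0.391 CPM in cerebellum and 245 to 445 CPM in the forebrain (log2 -6.95, and -9.18 without it). Zfp831, a zinc finger gene, had 0.769, 0.19 and 0.0602 CPM in cerebellum and 26.6 to 62.1 CPM in the forebrain (log2 -7.12, and -8.46 without it). Crhbp, the binding protein of corticotropin-releasing hormone, had 0.659, 0.0949 and 0.0602 CPM in cerebellum and 13.5 to 22.4 CPM in the forebrain (log2 -6.23, and -7.90 without it). Htr3a, the ionotropic serotonin receptor subunit of forebrain interneurons, had 0.0301 to 0.0633 CPM in cerebellum and 6.18 to 14.4 CPM in the forebrain, and Cpne7, a copine, had 65 counts over the 3 cerebellum libraries and 46.7 to 489.6 CPM in the forebrain.

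The libraries were then checked against the cell types of the cerebellum. Of 27 tested granule neuron markers, 26 were higher in the cerebellum (96.3%, beside 27.5% of all tested genes) and 1 was lower. Of the 27, 19 were higher and defining (beside 4.69% of all tested genes). The median log2 fold change was 3.40, against 0.0202 over all genes tested. List medians below are given the same way and did not change when genes with no count in a group were set at their bound. Beside the genes above, Cbln1, the cerebellin that bridges parallel fibres to Purkinje dendrites, had 173, 197 and 155 CPM in cerebellum, against 1.76 to 2.67 CPM in cortex, 0.744 to 2.18 CPM in hippocampus and 7.02 to 9.72 CPM in bulb (log2 5.94, SE 0.21). The marker that was lower was Slc17a7, the vesicular glutamate transporter VGLUT1, which forebrain pyramidal neurons also use: it had 515, 690.2 and 597 CPM in cerebellum, against 1194 to 1424 CPM in cortex, 1264 to 1591 CPM in hippocampus and 532 to 599.5 CPM in bulb (log2 -0.78, SE 0.11, adjusted p = 8.38e-05). It was named after its values were seen, as were Neurod1, a differentiation factor of granule neurons with 338, 349 and 401 CPM in cerebellum and 8.01 to 22.8 CPM in the forebrain, and Zic1, with 996, 1043 and 1051 CPM in cerebellum and 13 to 144 CPM in the forebrain.

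Of 32 Purkinje neuron markers, 31 were higher in the cerebellum (96.9%, beside 27.5% of all tested genes). Of the 32, 29 were higher and defining (beside 4.69%), with a median log2 fold change of 3.72. Car8, a carbonic anhydrase-related protein that binds the IP3 receptor, had 1612, 1639 and 1912 CPM in cerebellum, against 11.3 to 16.2 CPM in cortex, 4.73 to 5.54 CPM in hippocampus and 5.93 to 9.72 CPM in bulb (log2 7.72, SE 0.14, adjusted p = 2.21e-12). Ppp1r17, a phosphatase inhibitor phosphorylated by cGMP-dependent kinase, had 194, 212 and 236 CPM in cerebellum and 0.149 to 5.9 CPM in the forebrain (log2 7.92, SE 0.21). The LIM factor Lhx1 had 68.1, 85.9 and 83.1 CPM in cerebellum and 0.108 to 0.953 CPM in the forebrain (log2 7.29, SE 0.26). The marker that did not pass was Foxp2, a transcription factor that cortical and bulb neurons also use, with 19.9, 8.86 and 10.6 CPM in cerebellum, against 16.3, 28.5 and 36.4 CPM in cortex, 1.43, 1.09 and 2.45 CPM in hippocampus and 21.4, 17 and 23.2 CPM in bulb (log2 0.43, SE 0.29, adjusted p = 0.234). Against single regions the log2 value was 3.0 against hippocampus and -1.05 against cortex, so the mean hid opposite values.

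Markers of cerebellar interneurons and Bergmann glia were less uniform. Of 18 interneuron and unipolar brush cell markers, 11 were higher (61.1%, beside 27.5% of all tested genes) and 6 were lower (33.3%, beside 26.9%, median 1.54). Of 12 Bergmann glia markers 7 were higher (58.3%) and 2 were lower (16.7%, median 1.09). Tfap2b, a factor of the GABAergic lineage, had 49.6, 62.8 and 59.3 CPM in cerebellum and 0.0751 to 4.12 CPM in the forebrain (log2 5.91, SE 0.17). Scgn (secretagogin), a calcium-binding protein known from bulb interneurons, had no count in cerebellum, against 1.15 to 3.69 CPM in cortex, 0.907 to 1.25 CPM in hippocampus and 56.1 to 63.8 CPM in bulb, at least 617-fold lower in cerebellum than in the forebrain. Gdf10, a BMP-family ligand of Bergmann glia, had 171, 205 and 173 CPM in cerebellum and 7.08 to 15 CPM in the forebrain (log2 4.08, SE 0.12). Ptprz1, a receptor phosphatase of many glia, had 438, 285 and 421 CPM in cerebellum and 159.6 to 384 CPM in the forebrain and did not pass (log2 0.51, SE 0.25, adjusted p = 0.104, but log2 0.46 and adjusted p = 0.00968 without the 4 libraries numbered 2).

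Regional transcription factors gave the largest list medians in size among the lists tested. Of 23 listed factors of the midbrain-hindbrain boundary and cerebellar primordium, 15 had enough counts to be tested. Counts in the cerebellum alone could be enough. Of the 15 tested, 12 were higher (80%, beside 27.5% of all tested genes) and 10 were higher and defining (beside 4.69%, median 5.41). With no filter on low counts, 15 of 23 were higher and 11 were higher and defining (median 4.13), beside 4383 and 799 of all 25572 genes tested. En1, another Engrailed factor, had 7.03, 1.9 and 3.4 CPM in cerebellum and 2 forebrain counts, a ratio of 474 with a 95% counting interval of 130 to 3930. Its fitted log2 value was 8.93, and 8.30 without cerebellum replicate 1. Pax2 had 8.13, 10.1 and 9.75 CPM in cerebellum, against 0 to 0.119 CPM in cortex, 0.227 to 0.506 CPM in hippocampus and no count in bulb. Uncx, a homeodomain factor, had 9.12, 16.5 and 18.3 CPM in cerebellum and at most 0.308 CPM in the forebrain, with no count in hippocampus. The lower member was Meis2, chosen after its values were seen, which averaged 10.2 CPM in cerebellum, against 166 CPM in cortex, 50.9 CPM in hippocampus and 700 CPM in bulb, with a log2 fold change of -4.15, and -5.21 without cerebellum replicate 1. It is also on the telencephalic list. The value of Lhx9 depended on 1 library: it had 12.4, 0.664 and 1.29 CPM in cerebellum, against 17 to 19 CPM in hippocampus and 0.52 to 3.52 CPM in cortex and bulb, with a log2 fold change of 0.60 (adjusted p = 0.498) that was -1.66 (adjusted p = 0.011) without cerebellum replicate 1.

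Hox genes, which pattern the hindbrain caudal to the cerebellum and the spinal cord, were at or near 0 counts. Of 16 matched Hox genes none had enough counts to be tested, 7 had no count in any cerebellum library, and the highest summed over the 3 cerebellum libraries had 4 counts.

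Of 30 tested transcription factors of the telencephalon, 27 were lower in the cerebellum (90%, beside 26.9% of all tested genes). Of the 30, 20 were lower and defining (beside 7.22%) and 3 were higher (10%, beside 27.5%, median -5.25). Dlx2 had no count in cerebellum, against 5.93 to 7.95 CPM in cortex, 3.3 to 4.95 CPM in hippocampus and 58.9 to 75.1 CPM in bulb, at least 766-fold lower in cerebellum than in the forebrain, and Dlx6 at least 497-fold. Fezf2, which specifies deep-layer projection neurons, had 1 count in each cerebellum library, against 23.3 to 26.6 CPM in cortex, 42.1 to 52.4 CPM in hippocampus and 1.61 to 2.04 CPM in bulb. The 3 higher factors, named after their values were seen, were Zbtb18, Neurod2 and Bhlhe22, which are transcriptional regulators of excitatory neuron differentiation. Zbtb18 averaged higher than in each forebrain region, with 952, 958 and 859 CPM in cerebellum, against 331 to 342 CPM in cortex, 558 to 656 CPM in hippocampus and 55.7 to 59.7 CPM in bulb (log2 2.01, SE 0.07). Neurod2 had 82, 111 and 102 CPM in cerebellum, against 44.9 to 51 CPM in cortex, 116 to 147 CPM in hippocampus and 3.14 to 3.73 CPM in bulb, so its call (log2 1.83) came from cortex and bulb. Bhlhe22 had 61.8 to 67.2 CPM in cerebellum, against 42.9 to 58.7 CPM in cortex, 90.5 to 115 CPM in hippocampus and 1.06 to 3.19 CPM in bulb, and its call (log2 1.48) came from the bulb alone.

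**Figure D3:**
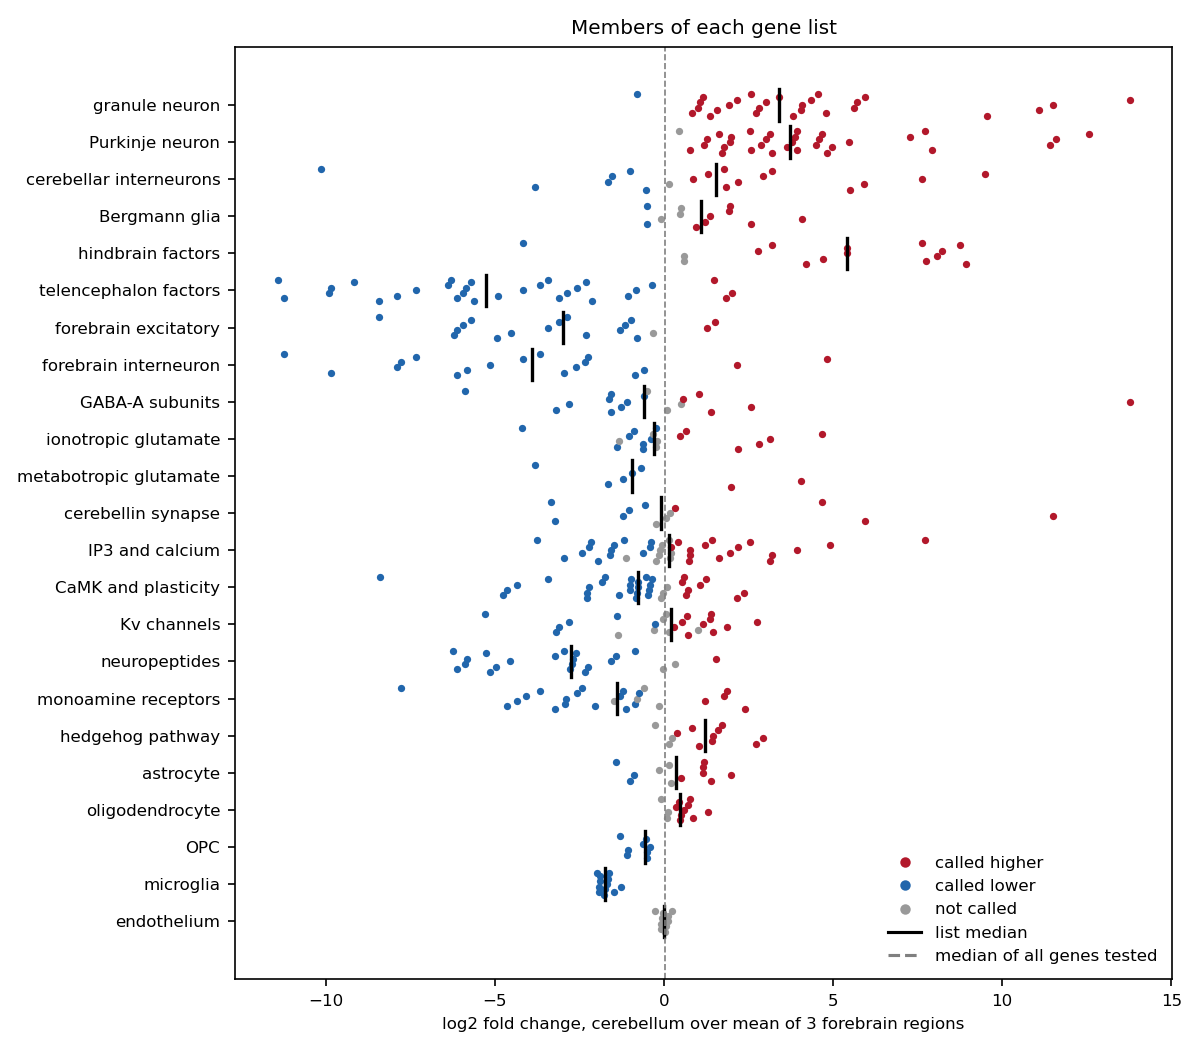
Each point is a tested gene of a list, placed at its log2 fold change of the cerebellum over the mean of the 3 forebrain regions and coloured by whether it was called higher, called lower or not called; black bars are list medians and the dashed line is the median of all tested genes (0.0202). Granule (median 3.40), Purkinje (3.72) and hindbrain (5.41) lists lie to the right, telencephalic factors (-5.25) to the left, and receptor and channel families spread to both sides.

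GABA-A receptors are pentamers whose subunits set where a receptor sits and how it is gated, and granule neurons use a combination of alpha6 and delta outside synapses. Of 17 tested subunits 5 were higher (29.4%, beside 27.5% of all tested genes), 9 were lower (52.9%, beside 26.9%) and 3 did not pass (median -0.60). The share of higher subunits was near that of all genes. Beside Gabra6, the delta subunit Gabrd had 248, 269 and 259.6 CPM in cerebellum, against 73.9 to 80.8 CPM in cortex, 21.7 to 23.7 CPM in hippocampus and 44.6 to 51.8 CPM in bulb (log2 2.56, SE 0.06, adjusted p = 2.02e-11). Gabra5, an alpha subunit known for hippocampal tonic inhibition, had 4.72, 1.17 and 0.843 CPM in cerebellum, against 63 to 68.8 CPM in cortex, 182 to 232 CPM in hippocampus and 143 to 173 CPM in bulb. The difference was -5.88 on the log2 scale (SE 0.47, adjusted p = 1.79e-06), and -7.00 without cerebellum replicate 1, which was the highest of the cerebellum libraries. Gabra3 had 29.2, 16.1 and 16.8 CPM in cerebellum and 85.9 to 216 CPM in the forebrain (log2 -2.80, SE 0.19).

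Of 18 ionotropic glutamate receptor subunits 6 were higher (33.3%, beside 27.5% of all tested genes) and 8 were lower (44.4%, beside 26.9%). The other 4 did not pass, and the list median was -0.28. The share of higher subunits was near that of all genes. Grin2c, the NMDA receptor subunit of mature granule neurons, had 353, 616 and 529.7 CPM in cerebellum and 51.2 to 114 CPM in the forebrain (log2 2.80, SE 0.12). The AMPA subunit Gria4 had 623, 598 and 668 CPM in cerebellum and 72 to 250.2 CPM in the forebrain. The kainate subunit Grik5 had 88.7, 105 and 85.7 CPM in cerebellum and 205 to 307 CPM in the forebrain (log2 -1.39, SE 0.13).

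Grin2b, the forebrain NMDA subunit, was among the genes low in the libraries numbered 2. It had 5.67, 0.316 and 3.01 CPM in cerebellum, against 68.5, 22.4 and 81 CPM in cortex, 141, 4.17 and 63.9 CPM in hippocampus and 66.5, 2.08 and 51.2 CPM in bulb, so cerebellum replicates 1 and 3 lay above the lowest forebrain library. Its log2 fold change was -4.19 (SE 1.40, adjusted p = 0.0284). The call was lost without cerebellum replicate 1 (log2 -5.01, adjusted p = 0.0566), cerebellum replicate 2 (-3.65, 0.0928), cerebellum replicate 3 (-4.20, 0.0924) or cortex replicate 1 (-4.16, 0.0516). In contrast, without the 4 libraries numbered 2 the log2 fold change was -4.16 (adjusted p = 0.00049).

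Of 7 tested metabotropic glutamate receptors 2 were higher (28.6%, beside 27.5% of all tested genes) and 5 were lower (71.4%, beside 26.9%, median -0.94). The share of higher receptors was near that of all genes. Grm4, a presynaptic receptor of parallel fibres, had 735, 789 and 763 CPM in cerebellum, against 39.3 to 41.4 CPM in cortex, 15.8 to 17.9 CPM in hippocampus and 133 to 147 CPM in bulb (log2 4.07, SE 0.06, adjusted p = 4.15e-13). Grm5, a postsynaptic receptor that couples to phospholipase C, had 28.8, 6.36 and 11.6 CPM in cerebellum and 89.1 to 358 CPM in the forebrain (log2 -3.79, SE 0.45, adjusted p = 3.88e-05, and -4.58 without cerebellum replicate 1).

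Of 12 genes of the cerebellin synapse 4 were higher (33.3%, beside 27.5% of all tested genes) and 5 were lower (41.7%, beside 26.9%, median -0.08). The share of higher genes was near that of all genes. Cbln4 had 3.99, 1.11 and 1.29 CPM in cerebellum, against 20.7 to 31.3 CPM in cortex, 9.7 to 19.1 CPM in hippocampus and 27.5 to 30.3 CPM in bulb (log2 -3.33, and -4.13 without cerebellum replicate 1). Cbln2 had 9.48, 0.19 and 0.361 CPM in cerebellum, against 41.7 to 55.7 CPM in cortex, 10.1 to 14.8 CPM in hippocampus and 43.7 to 45.3 CPM in bulb. The log2 fold change of -3.22 (SE 0.89, adjusted p = 0.0121) was -6.75 without cerebellum replicate 1, and it did not pass without the 4 libraries numbered 2 (log2 -2.66, adjusted p = 0.0558).

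**Figure D4:**
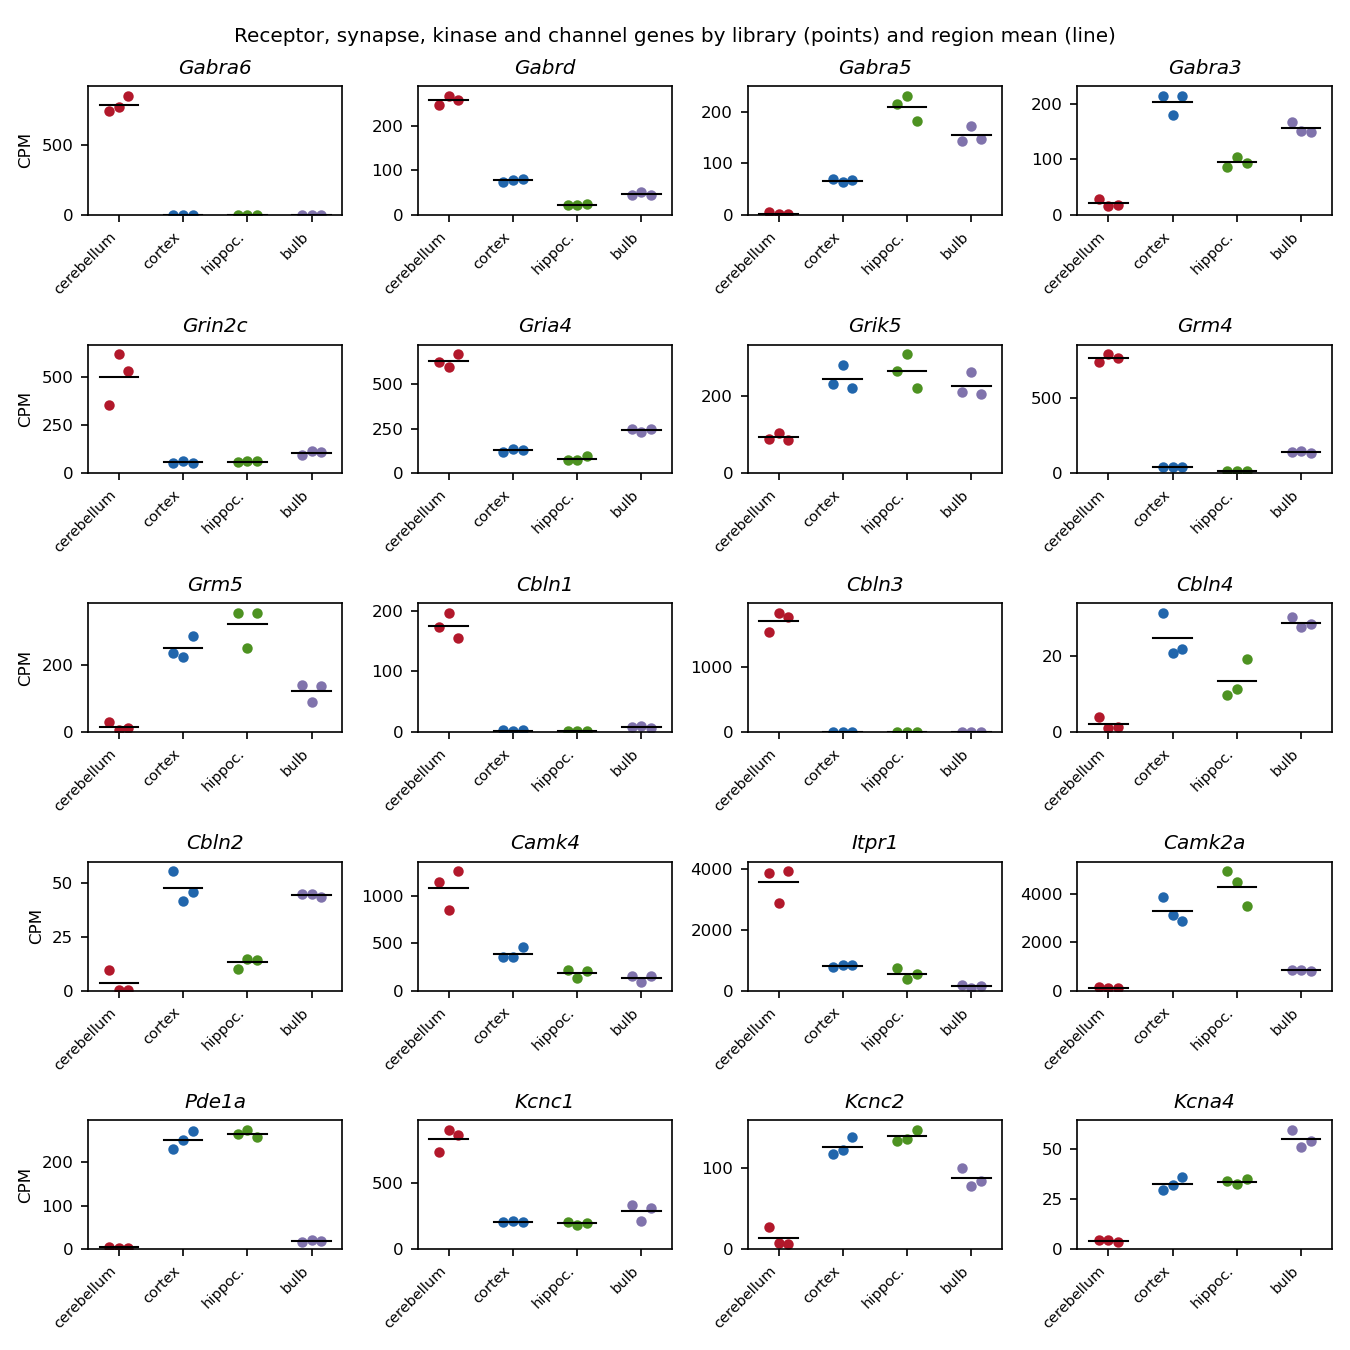
CPM of 20 genes in each library (points) with the region mean (line), on axes that start at 0, cerebellum leftmost. Within each family some members are high in the cerebellum (Gabra6, Grin2c, Grm4, Cbln3, Camk4, Kcnc1) and others low there (Gabra5, Grik5, Grm5, Cbln4, Camk2a, Kcnc2).

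Purkinje neurons release calcium from stores through the type 1 IP3 receptor. Of 37 genes of IP3 and calcium signalling 16 were higher (43.2%, beside 27.5% of all tested genes) and 13 were lower (35.1%, beside 26.9%). The other 8 did not pass, and the list median was 0.16. Itpr1, that receptor, had 3888, 2902 and 3934 CPM in cerebellum, against 788 to 847 CPM in cortex, 381 to 727 CPM in hippocampus and 97.8 to 183 CPM in bulb (log2 3.14, SE 0.18). Atp2a3, a calcium pump of the endoplasmic reticulum, had 320.5, 372 and 333 CPM in cerebellum and 8.6 to 14.6 CPM in the forebrain (log2 4.92, SE 0.10). Trpc4, a cation channel, had 3.33, 1.99 and 2.44 CPM in cerebellum and 19.5 to 75.5 CPM in the forebrain (log2 -3.75, SE 0.16). The scaffold Homer3, which links metabotropic glutamate receptors to the IP3 receptor, had 298, 358 and 361 CPM in cerebellum, against 6.79 to 8.31 CPM in cortex, 60.3 to 71.5 CPM in hippocampus and 20 to 22.3 CPM in bulb.

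Genes of calmodulin kinase signalling and postsynaptic plasticity were mostly lower. Of 34, 23 were lower (67.6%, beside 26.9% of all tested genes) and 8 were higher (23.5%, beside 27.5%). The other 3 did not pass, and the list median was -0.77. Camk2a, the alpha subunit of calmodulin kinase II, had 139.7, 109 and 87.4 CPM in cerebellum, against 2861 to 3870 CPM in cortex, 3490 to 4931 CPM in hippocampus and 811 to 866 CPM in bulb (log2 -4.35, SE 0.19, adjusted p = 3.65e-09). Camk4, a nuclear calmodulin kinase of granule neurons, went the other way, with 1140, 852 and 1255 CPM in cerebellum, against 349 to 456 CPM in cortex, 132 to 213 CPM in hippocampus and 92.1 to 154 CPM in bulb (log2 2.36, SE 0.18). Pde1a, a calmodulin-dependent phosphodiesterase, had 5.24, 3.32 and 3.7 CPM in cerebellum, against 232 to 273 CPM in cortex, 259.7 to 275 CPM in hippocampus and 16.1 to 22 CPM in bulb. Nrgn, whose cerebellum values are given above, had 780.3 to 1063 CPM in cortex and hippocampus and 106 to 124 CPM in bulb (log2 -4.64, SE 0.85, adjusted p = 0.00114, and -6.89 without cerebellum replicate 1).

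Of 22 voltage-gated potassium channel genes 10 were higher (45.5%, beside 27.5% of all tested genes), 6 were lower (27.3%, beside 26.9%) and 6 were not called (median 0.23). Kcnc1, a Kv3 subunit that lets neurons fire fast, had 730, 895 and 859.8 CPM in cerebellum and 179.9 to 328 CPM in the forebrain (log2 1.88, SE 0.11). Kcnc2, another Kv3 subunit, used by forebrain interneurons, had 27.6, 7.02 and 5.72 CPM in cerebellum and 77.1 to 146 CPM in the forebrain (log2 -3.10, SE 0.46, and -4.17 without cerebellum replicate 1). Kcna4 had 4.76, 4.49 and 3.64 CPM in cerebellum and 29.6 to 59.8 CPM in the forebrain (log2 -3.20, SE 0.11). The channel partner Kcnip2 had 9.59, 3.42 and 3.01 CPM in cerebellum and 154 to 279.8 CPM in the forebrain (log2 -5.27, and -5.99 without cerebellum replicate 1).

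Genes of the neuropeptide list were mostly lower, with 19 of 22 lower (86.4%, beside 26.9% of all tested genes). Of the 22, 1 was higher (4.55%, beside 27.5%) and 2 were not called (median -2.75). The list also held genes that are not peptide precursors, such as the binding protein Crhbp (lower) and Nxph3 (not called). Vip, a peptide of cortical interneurons, had 1.61, 0.0949 and 0.211 CPM in cerebellum, against 42.2 to 65.2 CPM in cortex, 20.5 to 26.8 CPM in hippocampus and 28 to 34.1 CPM in bulb (log2 -5.83, SE 0.58, adjusted p = 1.1e-05, and -7.77 without cerebellum replicate 1). Cort (cortistatin) had 0.0316 to 0.15 CPM in cerebellum and 2.29 to 3.98 CPM in the forebrain (log2 -5.13, SE 0.36, and -5.84 without cerebellum replicate 3). Penk (proenkephalin) lay between regions, with 119, 119 and 117 CPM in cerebellum, against 229 to 345 CPM in cortex, 22.4 to 23.5 CPM in hippocampus and 238 to 267 CPM in bulb (log2 -0.02, SE 0.11, adjusted p = 0.863). The higher gene was Npff, chosen after its values were seen, which had a mean of 2.07 CPM in cerebellum, against 0.411 CPM in cortex, 0.870 CPM in hippocampus and 0.972 CPM in bulb.

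Receptors for serotonin, dopamine and noradrenaline were lower in 16 of 24 cases (66.7%, beside 26.9% of all tested genes). They were higher in 4 (16.7%, beside 27.5%, median -1.39). Drd1, the dopamine D1 receptor, had 0.659, 0.221 and 0.301 CPM in cerebellum, against 33.3 to 65.4 CPM in cortex, 4.02 to 5.85 CPM in hippocampus and 2.48 to 4.42 CPM in bulb (log2 -4.64, SE 0.38). Htr1a had 2.96, 0.348 and 0.241 CPM in cerebellum, against 22.1 to 23.7 CPM in cortex, 46.5 to 48.8 CPM in hippocampus and 6.04 to 7.13 CPM in bulb (log2 -4.08, SE 0.60, and -6.02 without cerebellum replicate 1).

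Markers of forebrain neurons were mostly lower. Of 18 forebrain excitatory neuron markers 15 were lower (83.3%, beside 26.9% of all tested genes) and 2 were higher (11.1%, beside 27.5%, median -2.98). Of 18 forebrain interneuron markers 16 were lower (88.9%) and 2 were higher (11.1%, median -3.91). Tbr1, a factor of deep-layer and bulb projection neurons, had 0.769, 0.949 and 0.782 CPM in cerebellum, against 126 to 151 CPM in cortex, 48.9 to 63.4 CPM in hippocampus and 16.5 to 18.3 CPM in bulb (log2 -5.93, SE 0.14). The 2 higher interneuron markers were the calcium-binding proteins Pvalb and Calb2, named after their values were seen, which cerebellar neurons also use. Pvalb had 392, 481 and 542 CPM in cerebellum, against 32.8 to 49.7 CPM in cortex, 25.1 to 28.5 CPM in hippocampus and 3.82 to 5.2 CPM in bulb (log2 4.82, SE 0.12). Of 18 genes of transmitter synthesis and transport 6 were higher (33.3%, beside 27.5% of all tested genes) and 10 were lower (55.6%, beside 26.9%, median -0.47). Among the lower was Slc17a8, the vesicular glutamate transporter VGLUT3. It had 0.0366, 0.0949 and 0.0903 CPM in cerebellum and 0.297 to 7.64 CPM in the forebrain (log2 -5.08, SE 0.34).

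Sonic hedgehog, which Purkinje neurons release to drive the division of granule progenitors, acts through receptors and Gli factors. Of 12 pathway genes 9 were higher (75%, beside 27.5% of all tested genes), none was lower and 3 did not pass (median 1.23). The target and activator Gli1 had 15.2, 26.8 and 24.9 CPM in cerebellum and 1.64 to 5.16 CPM in the forebrain (log2 2.73, SE 0.25, adjusted p = 2.85e-06). The receptor Ptch1 had 228, 239 and 244 CPM in cerebellum and 36.8 to 126 CPM in the forebrain (log2 1.71, SE 0.17). The coreceptor Boc had 101, 133 and 107 CPM in cerebellum and 9.88 to 23.8 CPM in the forebrain (log2 2.92, SE 0.09). Smo, the signal transducer, had 21.3, 23 and 20.7 CPM in cerebellum and 12.2 to 21.6 CPM in the forebrain (log2 0.24, SE 0.13, adjusted p = 0.148, but log2 0.30 and adjusted p = 0.00577 without cortex replicate 1).

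Non-neuronal cells were compared by their markers. For microglia, the resident macrophages of the brain, all 12 markers were lower in the cerebellum and defining, and in all 12 the groups did not overlap, with log2 fold changes between -1.96 and -1.26 (median -1.75). Of all tested genes 26.9% were lower, 7.22% were lower and defining, and 14.8% lay below with no overlap. Their summed level was 184 to 213 CPM in the cerebellum libraries, against 516 to 735 CPM in the 9 forebrain libraries. Cx3cr1, the fractalkine receptor, had 16.5, 14.8 and 13.2 CPM in cerebellum, against 73.3, 50 and 59.5 CPM in cortex, 59.8, 55.1 and 50.4 CPM in hippocampus and 49.8, 59.7 and 42.8 CPM in bulb (log2 -1.90, SE 0.14, adjusted p = 3.77e-07). Tmem119, a surface marker of resident microglia, had 7.25, 6.29 and 6.29 CPM in cerebellum and 19.3 to 37.3 CPM in the forebrain (log2 -1.96, SE 0.19), and P2ry12, their ADP receptor, 7.81 to 11.3 CPM and 25.2 to 45.3 CPM. All 12 stayed lower and defining without cerebellum replicate 1 and without the 4 libraries numbered 2.

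Markers of oligodendrocyte precursors (OPC) were also lower, 8 of 8 (beside 26.9% of all tested genes, median -0.57), but by less than the microglia markers. Only 1 of the 8 was defining (beside 7.22% of all tested genes lower and defining). In 4 of the 8 the groups did not overlap (14.8% of all tested genes lay below in this way). Their summed level was 195 to 242 CPM in cerebellum, against 338 to 443 CPM in cortex, 352 to 429 CPM in hippocampus and 287 to 312 CPM in bulb. Mature oligodendrocyte markers were not lower: 9 of 12 were higher (75%, beside 27.5% of all tested genes), none lower and none defining (median 0.49). Those calls rested on the bulb: against the mean of cortex and hippocampus alone 2 of the 12 were higher and 2 were lower (median 0.19). Their summed level was 6029 to 6790 CPM in cerebellum, against 5563 to 6983 CPM in cortex, 5166 to 7019 CPM in hippocampus and 2504 to 2947 CPM in bulb. Mbp, the myelin basic protein gene, had 2714, 2652 and 2318 CPM in cerebellum, against 2018 to 2618 CPM in cortex, 2069 to 2850 CPM in hippocampus and 929.7 to 1099 CPM in bulb. The cerebellum overlapped with cortex and hippocampus, and the call against the mean (log2 0.50, SE 0.11, adjusted p = 0.00229) was set by the bulb, with log2 values of 0.13 against cortex, 0.07 against hippocampus and 1.30 against bulb.

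Of 12 astrocyte markers 6 were higher (50%, beside 27.5% of all tested genes) and 3 were lower (25%, beside 26.9%, median 0.35). Their summed level was 4202 to 4685 CPM in cerebellum. That was under cortex (4732 to 6376 CPM) and hippocampus (4897 to 6213 CPM) and over bulb (3140 to 3546 CPM). Slc1a2, the glutamate transporter GLT-1, had 1127, 794 and 817 CPM in cerebellum, against 2945 to 3897 CPM in cortex, 2744 to 3995 CPM in hippocampus and 1147 to 1462 CPM in bulb (log2 -1.41, SE 0.16). S100b, a calcium-binding protein of astrocytes, had 397, 419.7 and 438 CPM in cerebellum and 79.3 to 131 CPM in the forebrain (log2 1.99, SE 0.08). Slc1a6, the Purkinje glutamate transporter EAAT4, had 164, 178 and 166 CPM in cerebellum and 3.86 to 10.4 CPM in the forebrain (log2 4.60, SE 0.10). None of 10 endothelial markers passed with all 12 libraries in edgeR without a replicate block, in DESeq2 or in limma-voom, and 0 had an unadjusted p under 0.05 in that edgeR fit (lowest adjusted p = 0.0985). In other edgeR fits 1 passed as lower: with the replicate block, without cortex, without cerebellum replicate 2, without bulb replicate 1 and without the 4 libraries numbered 2. Without cerebellum replicate 3, 1 passed as higher. Their summed level was 452 to 484 CPM in cerebellum and 406 to 520 CPM in the forebrain.

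Choroid plexus markers were higher in 4 of 13 cases, 30.8% beside 27.5% of all tested genes, a share near that background. Their level differed widely between libraries of 1 region. The summed levels were 3423, 3836 and 191 CPM in cerebellum, against 184 to 4925 CPM in hippocampus, 283 to 905 CPM in cortex and 209 to 239 CPM in bulb. Ttr was called (log2 4.38, SE 1.51, adjusted p = 0.0331), and that call was lost in 8 of the 12 fits that left out 1 library, with adjusted p-values of 0.0505 to 0.101: cerebellum replicates 1 and 2, cortex replicate 2, hippocampus replicates 1 and 3 and all 3 of the bulb. The log2 value was 4.07 without cerebellum replicate 1, 3.86 without replicate 2 and 4.97 without replicate 3. The number of the 13 called higher depended on single libraries. It was 10 without cerebellum replicate 3 (median 2.47, against 1.94 with all libraries) and 2 without cerebellum replicate 1 or 2, and over the 12 fits that left out 1 library it was under 4 in 9 fits and over 4 in 2. It was 11 without hippocampus, 3 without cortex, 1 without bulb and 1 without the 4 libraries numbered 2. The replicate block and no filter on low counts gave 2 each, limma-voom 1.

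**Figure D5:**
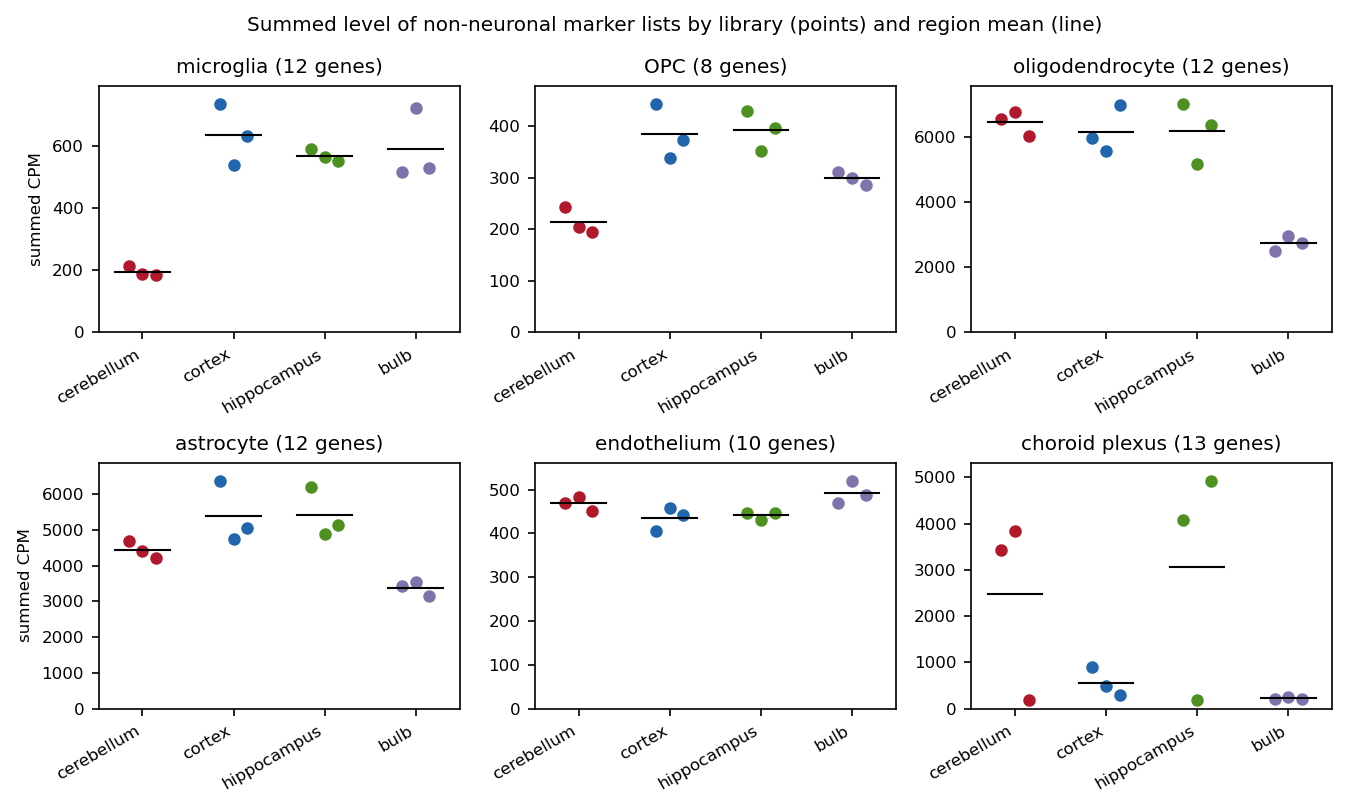
Summed CPM of 6 marker lists in each library (points) with the region mean (line), on axes that start at 0, cerebellum leftmost. The microglia sum is 184 to 213 CPM in cerebellum and at least 516 CPM elsewhere, the oligodendrocyte sum is low only in bulb, and the choroid plexus sum runs from 191 to 3836 CPM among the 3 cerebellum libraries and from 184 to 4925 CPM among the 3 hippocampus libraries.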

How the data were processed

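Poly(A)-selected RNA was sequenced with a kit that keeps strand. The deposited files hold counts per gene, made by the authors, per the submitters' processing notes, with bcl2fastq 2.17.1.14, STAR 2.5.1b and HTSeq 0.6.1p1 on mm9; whether counting used strand is not given in the sources used here. Reads in no feature (8.22 to 16.8% of each library's total), ambiguous (0.576 to 0.764%) and not unique (11.6 to 13.5%) were left out. The 12 wild-type libraries held 21068566 to 36208610 gene counts, and counting intervals cover counting error only, since reads without molecular identifiers are not independent molecules.

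edgeR 4.0.16 in R 4.3.3 was used with filterByExpr, TMM scaling and the robust quasi-likelihood F test. Of 37621 features, 16729 were tested. The contrast was the cerebellum minus the mean of the 3 forebrain regions, each region weighted equally, and each region alone. Calls needed a Benjamini-Hochberg adjusted p under 0.05 over all tested genes. SE was the log2 fold change divided by the square root of F. The code was tested on simulated data. Named genes were the 15 defining genes per direction with the largest smallest difference from any region, plus listed genes. Members and lists were chosen with earlier results of these data known. Alternatives used limma 3.58.1 and DESeq2 1.42.0. Promoters came from RefSeq. Some genes that these rules name are not reported here.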

Additional observations from a re-analysis of the deposited data

How the results depend on the processing

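The counts of genes called higher and lower against the forebrain mean (4596 and 4503) and of defining genes (784 and 1208) moved little with the method: library totals gave 4455 and 4458 (750 and 1213 defining), DESeq2 size factors 4431 and 4598 (774 and 1226), DESeq2's Wald test 4555 and 4752 (761 and 1223), limma-voom 4715 and 4544 (798 and 1191), and no filter on low counts 4383 and 4500 of 25572 tested (799 and 1211). Leaving out 1 library gave 3851 to 4865 higher, 3766 to 4675 lower, and 747 to 833 and 1070 to 1261 defining genes. Without the olfactory bulb the defining genes numbered 1228 and 1853, because 1 fewer region had to differ; without cortex they were 897 and 1312 and without hippocampus 915 and 1473. Dropping a region reversed the log2 value of Penk (0.64 without cortex, 0.50 without bulb), of Foxp2 (-0.85) and Gjd2 (-0.31) without hippocampus, and of Bhlhe22 (-0.15), Itpka (-1.43), Nxph3 (-0.89) and Cldn11 (-0.33) without bulb. Without cerebellum replicate 1, Lhx9 (-1.66) and Slc17a6 (-0.67) reversed, and over the fits without 1 library they reached 1.13 and 0.61. The uncalled Tcf7l2 (1.36, adjusted p = 0.0613) also changed sign there (-0.35, adjusted p = 0.353), and it passed without cerebellum replicate 2 (1.80, adjusted p = 0.0197) or 3 (1.79, 0.0232) and without cortex replicate 3 (1.53, 0.0461); the cause was not tested. A replicate block called 5358 higher and 5033 lower genes (802 and 1235 defining), called 2 choroid plexus markers in place of 4 and 1 endothelial marker in place of 0. The labels do not say that a number marks an animal, and pairing was taken only if every same-numbered pair correlated over 0.1. The correlations with the cerebellum were 0.068 to 0.497, over 0.1 in 8 of 9 pairs and under it for hippocampus replicate 3, so no block was used for the calls reported. All 3 cerebellum libraries in every region, and 8 of 9 forebrain libraries, correlated best with their own number, a hint from the data, not the design, that the numbers are shared. Genes near 0 in one group are limited by depth. Some of their fold changes are given as bounds or with wide counting intervals. Others are fitted values that rest on few counts in the low group, so that 1 library can move them.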

Other observations

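The cerebellum shared some genes with a single forebrain region, chosen after their values were seen. Eomes, a factor of unipolar brush cells and of bulb projection neurons, had 30.1, 22.2 and 31.3 CPM in cerebellum, against 2.23 to 5.39 CPM in cortex, 0.544 to 1.22 CPM in hippocampus and 136 to 164 CPM in bulb. Calb2 (calretinin), of granule and unipolar brush cells and of bulb interneurons, had 429, 449.6 and 403 CPM in cerebellum, against 28.2 to 77.5 CPM in cortex, 27 to 45.6 CPM in hippocampus and 443 to 570.1 CPM in bulb. Pax6, a factor of granule neurons and of bulb interneurons, had 109, 139 and 132 CPM in cerebellum and 73.5 to 80 CPM in bulb. Tdo2, a tryptophan-degrading enzyme, had 8.24, 8.98 and 5.9 CPM in cerebellum, against 8 to 9.19 CPM in hippocampus, where the libraries overlapped.

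Marker lists of the 3 forebrain regions were mostly lower in the cerebellum, beside 26.9% of all tested genes: 7 of 8 for cortex (87.5%, median log2 -3.81), 6 of 8 for hippocampus (75%, -1.95) and 7 of 8 for bulb (87.5%, -3.15). Each was set against a mean that holds the region it marks, and 4, 1 and 4 of the 8 were lower and defining (beside 7.22% of all tested genes). Without its own region the cortex list had 7 lower and 0 higher (median -2.95). The hippocampus list then had 4 lower and 2 higher (-0.45), and the bulb list 4 lower and 3 higher (-1.43). Of 9 tested brainstem and thalamus markers 2 were higher (22.2%) and 2 were lower (22.2%), beside 27.5% and 26.9% of all tested genes (median -0.08). Of 8 ependymal markers 3 were higher (37.5%) and 1 was lower (12.5%, median 0.33). The number of ependymal markers higher was 2 to 4 over the fits that left out 1 library and 1 without bulb. Of 8 meningeal fibroblast markers 1 was lower (12.5%, median -0.11).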
